A study of Mus musculus with 20 samples.

Results

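Genes of cell death were read in the kidney cortex of mice after 3 kinds of acute kidney injury. The set holds 39 of the 6025 genes in the deposited table. Its members were taken by symbol alone: the BCL2 family, the caspases, RIP kinases and MLKL, gasdermins, NLRP genes and Pycard, Fas and the TNF receptor superfamily, the TRAF adaptors and the IAP gene Birc3. The table held only genes that differed from the controls in some injury, so expression values bore on which symbols it contained. The symbols fit the label, with reservations: Bcl3 and Bcl10 carry the BCL name and are not BCL2 proteins, and several TNF receptors of the set have no death domain. Traf3ip2 carries the TRAF name and encodes the interleukin-17 receptor adaptor Act1, and Casp14 is a caspase of keratinocyte differentiation.

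The mice were wild-type C57BL/6J animals aged 8 weeks, and the 20 libraries, stated to be biological replicates, are called mice here. The 8 controls are described for the series as mock and vehicle animals together, and every control library is labelled mock. The injured mice were sampled 24 h after ischemia-reperfusion (IRI, blood flow to the kidney stopped and restored, n = 4), 24 h after rhabdomyolysis (muscle breakdown that releases myoglobin, n = 4) and 72 h after cisplatin (a DNA-damaging drug, n = 4). Doses and the length of ischemia were not given in the sources used here. Library identifiers fall into 2 ranges, with controls 1 to 4 and the IRI mice in one and controls 5 to 8, rhabdomyolysis and cisplatin in the other. The reference for each injury was for that reason the 4 controls with identifiers next to it, and the rhabdomyolysis and cisplatin comparisons share their controls. The cisplatin mice differ from the others in sampling time as well as in agent, and these cannot be told apart.

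Apoptosis is run by caspases, proteases that start as inactive precursors. In the mitochondrial pathway, BH3-only proteins such as PUMA (Bbc3) and NOXA (Pmaip1) disable the protective proteins BCL-XL (Bcl2l1) and MCL1, and BAX and BAK then open the outer mitochondrial membrane. In the receptor pathway, Fas, TNF receptor 1 and the TRAIL receptor gather caspase 8, which cuts BID and sets off further caspases. Where caspase 8 is held back, RIPK3 can phosphorylate MLKL, which ruptures the plasma membrane in necroptosis. Gasdermins form pores in pyroptosis. Tubular epithelium is a known site of each of these deaths in acute kidney injury. Transcript levels say nothing of protein cleavage or phosphorylation, by which most of these proteins act.

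Values are CPM, reads scaled to library size, and tests used limma on log2(CPM + 1), with Benjamini-Hochberg adjustment over all genes tested and a threshold of 0.05. Folds are ratios of mean CPM to the mean of the matched controls; log2 values are fitted differences ± SE, and at low read numbers the added 1 makes them smaller than the fold. A gene entered the test when it averaged 1 CPM or more over the 20 libraries, as 34 of the 39 members and 5672 genes in all did. The table itself held genes preselected for change: each of the 6025 lay 1.5-fold or more from the control mean in some injury, the smallest by 1.53-fold. Shares of called genes are for that reason high throughout, and cell death genes outside that selection are not analysed here. Recovered reads in the table ranged from 3.48 to 5.40 M (mega) per library. The 10 proximal tubule markers, all of them in the table, summed to 10426 to 15738 CPM in the controls, 3535 to 4439 after IRI, 2245 to 2715 after rhabdomyolysis and 1611 to 3061 after cisplatin. In whole tissue, fewer cells of a type and less RNA per cell cannot be told apart. The 5 loop of Henle and distal nephron markers in the table, of 8 listed, fell in each injury, from a sum of 2568 to 4505 CPM in the controls to 423 to 847 after IRI, 550 to 808 after rhabdomyolysis and 455 to 549 after cisplatin. Of 7 fibroblast and smooth muscle markers in the table (8 listed), 7, 7 and 6 rose in IRI, rhabdomyolysis and cisplatin, and their sum went from 106 to 213 CPM in the controls to 394 to 462, 536 to 1127 and 217 to 521. Of 4 endothelium and podocyte markers in the table (10 listed), 3 rose in each injury, and their sum went from 224 to 578 CPM to 579 to 724, 877 to 1208 and 628 to 793. None of these markers was at 0 over a group, and the part of these cell types in the changes of the members was not tested.

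Most of the tested members rose. In IRI, 23 of the 34 were higher and 2 lower, where 40.6% of all genes tested were called higher and 40.1% lower. In rhabdomyolysis, 27 were higher and 2 lower, beside 48.8% and 46.5% of all genes. In cisplatin, 31 were higher and 2 lower, beside 47.8% and 44.0% of all genes. The 31 include Tnfrsf18, which passed the minimum of 1 CPM only through its cisplatin libraries. Ripk3, counted as higher in each injury, was above 1 CPM in no control library. The median log2 fold change of the members was 0.76 after IRI, 1.02 after rhabdomyolysis and 1.55 after cisplatin, and that of all genes tested was 0.08, 0.31 and 0.30. Bid and Nlrp6 were the members called lower, in all 3 injuries. A further 21 members were called higher in all 3. No member was called in opposite directions in different injuries.

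**Figure D1:**
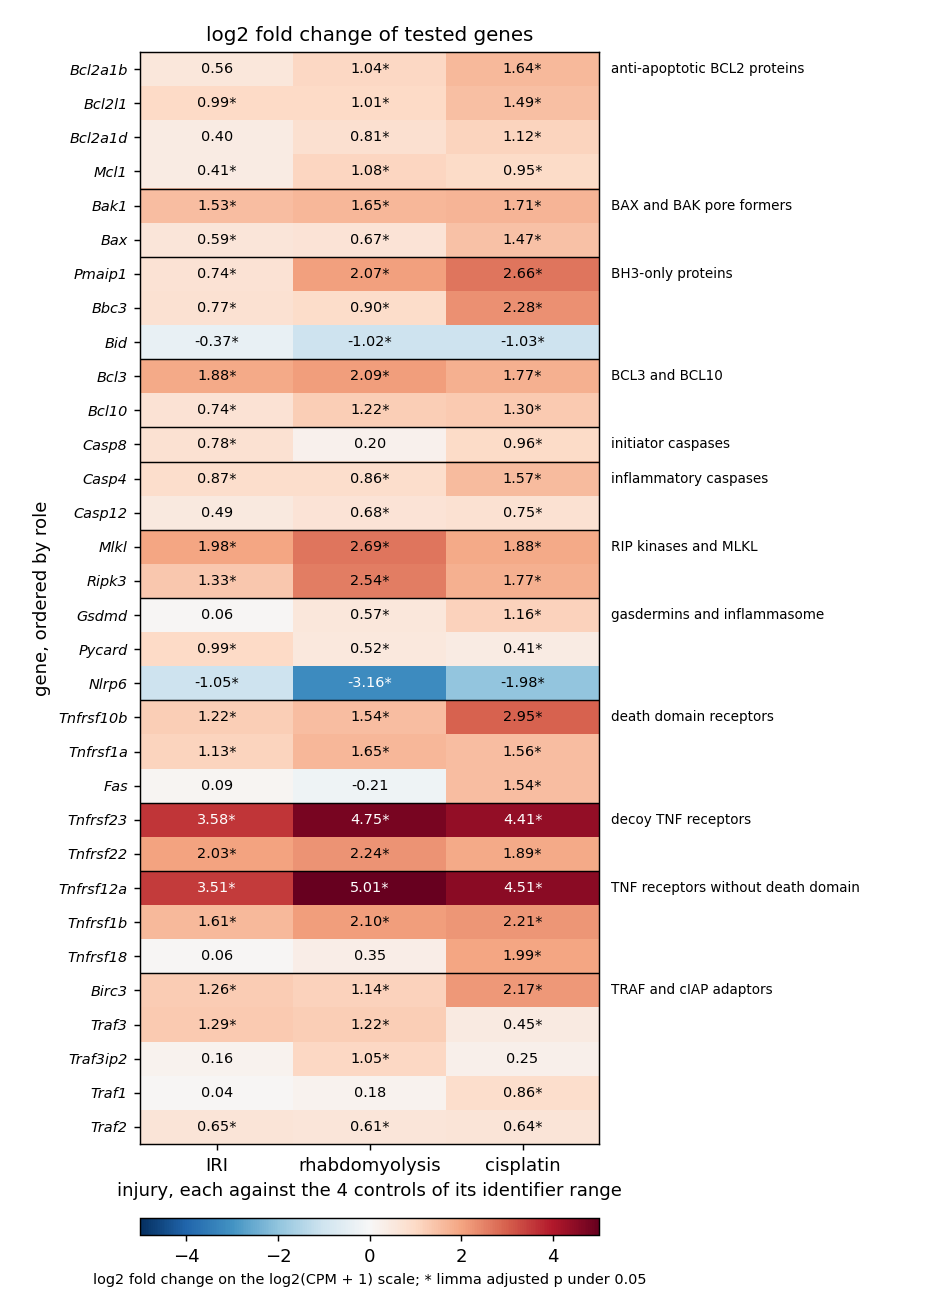
Fitted log2 fold change of tested genes (rows, ordered by role) in each injury against its 4 matched controls (columns), with values on the log2(CPM + 1) scale. Asterisks mark a limma adjusted p under 0.05; Tnfrsf12a and Tnfrsf23 carry the highest values, and Bid and Nlrp6 are below 0 in every column.

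Promoter sequence was available in the RefSeq table (build GRCm38.p6) for 31 of the 39 members. The 250 bases before each start were searched on both strands for 4 motifs: the kappa B site and the p53 half-site by their usual consensus, the AP-1 site TGANTCA, and the STAT site TTCNNNGAA. Kappa B, the site of NF-kB, was found in 7 of the 31 members (22.6%), in 6.32% of the 4477 table genes with a promoter and in 3.90% of all 32851 windows. The 7 were Bcl2l1, Bcl10, Tnfrsf9, Bbc3, Casp4, Nlrp3 and Traf3. AP-1 was found in 6 members (19.4%), in 7.26% of the table genes with a promoter and in 6.75% of all windows. STAT was found in 6 members (19.4%), in 7.86% of those table genes and in 7.02% of all windows. The p53 half-site was found in 2 members, Bax and Nlrp3 (6.45%), in 7.84% of those table genes and in 7.13% of all windows. Of the AP-1 matches, 3 lie in the near-identical Bcl2a1 copies, which are not independent of one another. Shares of members and table genes count a gene once over its starts, while shares of windows count each start. Matches describe these letters only; binding was not measured, and a p53 site outside the window would not be seen.

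The stretches below are printed because they carry matches in members described in the next paragraphs. The first 3 are the 150 bases before the start of Casp4, Tnfrsf9 and Traf3, each with the letters GGGGATTTCC. For Casp4 and Tnfrsf9 the later of 2 listed starts is used. Capitals mark every match; in Tnfrsf9 they are, in order, STAT, kappa B and AP-1.
Casp4, chr9:5308710-5308859, plus strand: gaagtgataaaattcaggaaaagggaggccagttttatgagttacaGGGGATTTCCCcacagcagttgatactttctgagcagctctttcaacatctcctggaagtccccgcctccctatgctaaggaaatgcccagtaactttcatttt
Tnfrsf9, chr4:150927849-150927998, plus strand: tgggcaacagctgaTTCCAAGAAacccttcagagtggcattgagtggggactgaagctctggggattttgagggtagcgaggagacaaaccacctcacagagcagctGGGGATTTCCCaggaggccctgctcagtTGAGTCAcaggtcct
Traf3, chr12:111166220-111166369, plus strand: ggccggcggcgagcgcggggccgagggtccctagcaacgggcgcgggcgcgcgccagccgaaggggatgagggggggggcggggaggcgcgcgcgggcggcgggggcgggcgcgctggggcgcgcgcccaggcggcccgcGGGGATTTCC

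Bax and Fas are known p53 targets that were high in cisplatin. The 250 bases before their starts are shown with the p53 half-site of Bax, and with AP-1 and then STAT in Fas, in capitals. Tnfrsf12a, whose fitted log2 rise was the largest of the members in rhabdomyolysis and in cisplatin, is shown because none of the 4 motifs was found in it.
Bax, chr7:45466899-45467148, minus strand: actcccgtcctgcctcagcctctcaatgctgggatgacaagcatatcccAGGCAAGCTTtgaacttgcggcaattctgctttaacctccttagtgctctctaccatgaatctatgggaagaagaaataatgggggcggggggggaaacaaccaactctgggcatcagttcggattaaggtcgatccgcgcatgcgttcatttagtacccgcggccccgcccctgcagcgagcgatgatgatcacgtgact
Fas, chr19:34290409-34290658, plus strand: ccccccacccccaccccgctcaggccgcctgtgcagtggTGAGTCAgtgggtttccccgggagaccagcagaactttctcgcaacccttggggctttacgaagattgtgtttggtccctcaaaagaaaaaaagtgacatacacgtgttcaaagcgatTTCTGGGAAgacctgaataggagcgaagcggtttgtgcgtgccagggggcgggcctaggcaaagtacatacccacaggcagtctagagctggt
Tnfrsf12a, chr17:23677450-23677699, minus strand: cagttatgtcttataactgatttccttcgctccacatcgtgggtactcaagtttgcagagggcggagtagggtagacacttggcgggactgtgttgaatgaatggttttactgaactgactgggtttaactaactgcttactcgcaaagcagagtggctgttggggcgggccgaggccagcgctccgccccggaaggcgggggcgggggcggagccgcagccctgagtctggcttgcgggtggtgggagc

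The 3 Bcl2a1 copies are shown to let their likeness be seen. Aligned over 130 to 174 bases, these stretches were 98.9% to 99.3% identical, and each holds 1 AP-1 match, in capitals.
Bcl2a1a, chr9:88956740-88956919, plus strand: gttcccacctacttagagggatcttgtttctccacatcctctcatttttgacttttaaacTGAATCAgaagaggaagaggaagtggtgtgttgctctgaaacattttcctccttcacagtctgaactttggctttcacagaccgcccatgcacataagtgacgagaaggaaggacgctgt
Bcl2a1b, chr9:89199093-89199272, plus strand: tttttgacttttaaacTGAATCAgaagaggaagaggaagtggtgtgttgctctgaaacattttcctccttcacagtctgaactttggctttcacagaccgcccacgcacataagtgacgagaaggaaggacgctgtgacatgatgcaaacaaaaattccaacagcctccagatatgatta
Bcl2a1d, chr9:88731851-88732030, minus strand: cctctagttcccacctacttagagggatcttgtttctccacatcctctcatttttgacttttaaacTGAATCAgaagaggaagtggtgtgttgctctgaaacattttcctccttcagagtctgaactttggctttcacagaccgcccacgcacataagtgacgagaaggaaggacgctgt

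The receptors held the 2 largest rises of the set. Tnfrsf12a encodes Fn14, the receptor of the cytokine TWEAK. Its level was 12.9 to 19.3 CPM in the 8 controls, with a median of 14.9. The IRI mice had 256, 164, 160 and 186 CPM, the rhabdomyolysis mice 439, 518, 476 and 573, and the cisplatin mice 307, 400, 376 and 336. Every injured library was above every control, and all rhabdomyolysis libraries were above all cisplatin and IRI libraries. Mean levels rose 12.1-fold in IRI, 34.5-fold in rhabdomyolysis and 24.4-fold in cisplatin (log2 3.51, 5.01 and 4.51, each ± 0.14 SE; limma adjusted p 8.74e-15, 7.51e-18 and 4.48e-17). Per kilobase of its longest annotated transcript, Tnfrsf12a was number 8 of the 39 members in the controls at a mean of 15.4 CPM per kb. It was the highest of all members in each injury, at 195, 510 and 361 CPM per kb.

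Tnfrsf23 encodes a decoy receptor that binds the death ligand TRAIL without a death domain. It had 1.47 to 3.59 CPM in the controls (median 2.38), 11 to 26 reads per library. IRI libraries held 38.4, 44.1, 41.3 and 31.9 CPM, the rhabdomyolysis mice 89.1, 111, 121 and 61.9, and the cisplatin mice 61.7, 91.5, 80 and 61.6. No injured library overlapped the controls. The rises were 16.6-fold, 37.3-fold and 28.8-fold (log2 3.58, 4.75 and 4.41, each ± 0.21 SE; limma adjusted p 2.87e-12, 6.91e-15 and 2.61e-14). Tnfrsf22, the neighbouring decoy receptor, rose too, from 2.12 ± 0.735 CPM (SD, n = 8) to 10.4 ± 1.39 after IRI, 15.7 ± 6 after rhabdomyolysis and 11.5 ± 2.36 after cisplatin (SD, n = 4 each). Longest transcripts of the pair matched at 93.6% of 1474 aligned bases, so reads of one may have been assigned to the other. Within rhabdomyolysis, mouse 4 was the lowest for both, at 61.9 and 7.27 CPM.

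Among receptors with a death domain, Tnfrsf1a, the main receptor of TNF, had 58 to 69.8 CPM in the controls (median 63.6). It reached 146 ± 12.3 CPM after IRI, 197 ± 8.79 after rhabdomyolysis and 186 ± 14.9 after cisplatin (SD, n = 4 each), without overlap with the controls. The limma log2 changes were 1.13, 1.65 and 1.56, each ± 0.09 (SE). Tnfrsf10b, the mouse TRAIL receptor with a death domain and a known p53 target, had 3.24 to 9.64 CPM in the controls (median 5.68). After IRI the mice had 13, 14.4, 12.9 and 10.9 CPM, the rhabdomyolysis mice 18.2, 23.2, 18.5 and 21.1, and the cisplatin mice 56, 62.4, 54.7 and 49.2. The 4 groups did not overlap one another. Mean levels rose 2.39-fold, 3.21-fold and 8.81-fold (log2 1.22, 1.54 and 2.95, each ± 0.20 SE; limma adjusted p 1.42e-05, 2.44e-07 and 1.40e-11).

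Of the 3 death domain receptors, 2 were called higher in IRI and in rhabdomyolysis and 3 in cisplatin, beside 40.6%, 48.8% and 47.8% of all genes called higher in IRI, rhabdomyolysis and cisplatin. The one that split was Fas, the receptor of Fas ligand. It had 5.91 to 11 CPM in the controls (median 7.47), 6.03, 8.26, 8.84 and 6.98 in IRI and 9.74, 4.53, 6.18 and 10.2 in rhabdomyolysis. Cisplatin libraries stood at 27.9, 27.9, 25.7 and 26.7 CPM. The cisplatin values were above every other library, while IRI and rhabdomyolysis overlapped the controls. The rise in cisplatin was 3.09-fold (log2 1.54 ± 0.19 SE, limma adjusted p 1.75e-07). In IRI the log2 difference was 0.09 ± 0.19 (limma adjusted p 0.667), and in rhabdomyolysis −0.21 ± 0.19 (limma adjusted p 0.282). Its cisplatin effect differed from both other effects, as the comparisons between injuries show.

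Of the receptors without a death domain, Tnfrsf1b, the TNF receptor 2 of leukocytes and endothelium, had 2.25 to 6.86 CPM in the controls (median 4.08). It rose to 13.7 ± 1.89 CPM after IRI, 22.8 ± 4.89 after rhabdomyolysis and 24.6 ± 3.58 after cisplatin (SD, n = 4 each), all above the controls (3.4-fold, 5.07-fold and 5.45-fold; log2 1.61 ± 0.20 SE in IRI and 2.21 ± 0.20 SE in cisplatin). Tnfrsf18, known as GITR and best studied on T cells, was near the detection limit outside cisplatin, at 0 to 6 reads per control library. It stood at 2.92, 4.95, 3.69 and 3.87 CPM in cisplatin and at no more than 0.829 CPM in any other library. Its mean over the 16 libraries outside cisplatin was 0.333 CPM, so it reached the minimum of 1 CPM, and the table, only through the cisplatin libraries. Its cisplatin difference of log2 1.99 ± 0.21 (SE) is for that reason a description with no test. In rhabdomyolysis its difference was 0.35 ± 0.21 and not called, but without control mouse 8 it was 0.55 with a limma adjusted p of 0.0151, and with a pseudocount of 0.1 it was 1.49 (limma adjusted p 0.0347). The sign of its IRI value, 0.06 ± 0.21, turned to −0.04 without control mouse 3, to −0.03 without IRI mouse 2 and to −0.18 after quantile normalization. Of 12 lymphocyte markers 2 were in the table, Cd8a and Cd79a; neither was at 0 over a group, and they summed to 1.69 to 3.73 CPM in the controls and 1.01 to 1.98 in cisplatin.

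**Figure D2:**
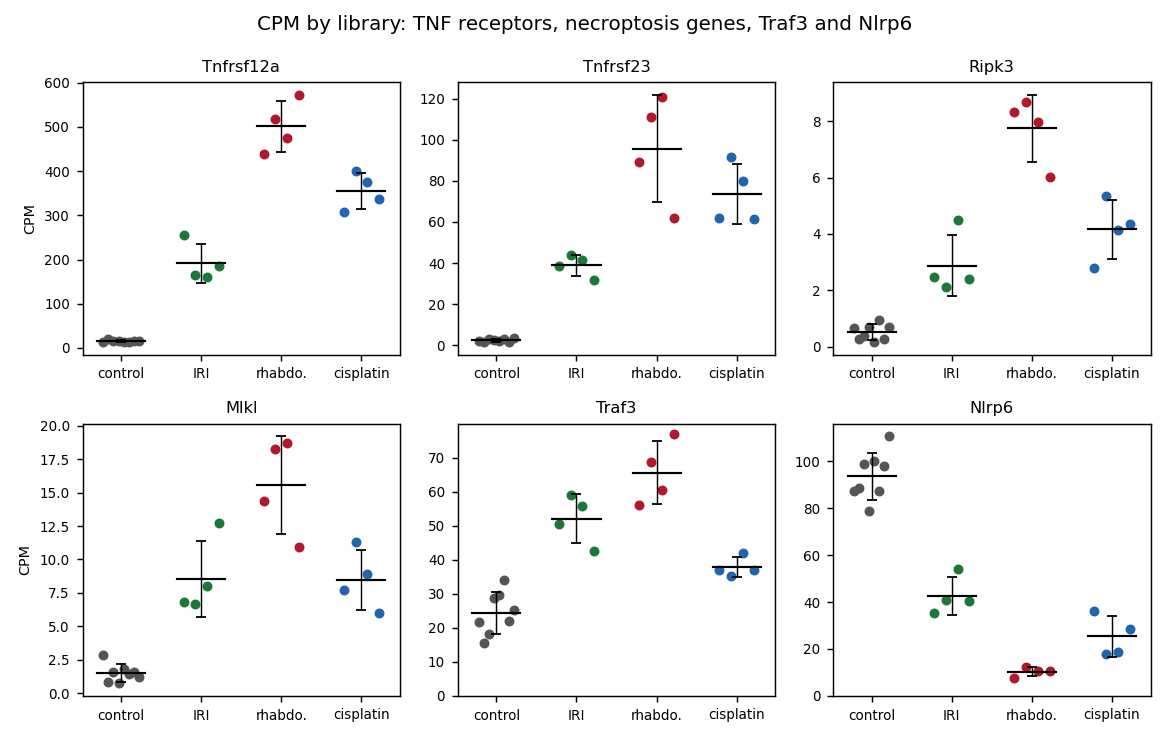
CPM (vertical axis) in each library by group (horizontal axis) for 6 genes; points are mice, the horizontal line is the mean and the bar is 1 SD. Tnfrsf12a, Tnfrsf23, Ripk3, Mlkl and Traf3 have their highest mean in rhabdomyolysis, and Nlrp6 has its lowest there, 7.56 to 12.4 CPM against 79 to 111 in the controls.

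TRAF proteins and cIAP2 link these receptors to NF-kB, and were counted together with Traf3ip2, an adaptor of another receptor. Of these 5 members 3 were called higher after IRI and 4 after each other injury, with none lower. Of all genes tested, 40.6%, 48.8% and 47.8% were called higher in IRI, rhabdomyolysis and cisplatin. The 4 in rhabdomyolysis include Traf3ip2. Birc3, which encodes cIAP2, had 7.46 to 11.5 CPM in the controls (median 9.17). The 4 IRI libraries had 20.2, 25.2, 17.9 and 20.2 CPM, the rhabdomyolysis mice 26.2, 20.7, 20 and 25.5, and the cisplatin mice 44.6, 50.1, 55.9 and 42.9. IRI and rhabdomyolysis libraries overlapped each other and were below all cisplatin libraries. Birc3 rose by log2 1.26, 1.14 and 2.17, each ± 0.13 (SE; limma adjusted p 3.21e-08, 4.99e-08 and 2.62e-12). Traf2 rose to a like level in all 3 injuries, from 13.2 ± 1.22 CPM (SD, n = 8) to 22.2 ± 0.657, 19.8 ± 0.933 and 20.2 ± 0.843 (SD, n = 4 each; log2 0.65, 0.61 and 0.64, each ± 0.10 SE). The cisplatin value was 0.42 after quantile normalization.

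Traf3, a brake on non-canonical NF-kB signalling, had 15.6 to 34 CPM in the controls (median 23.5). It stood at 50.5, 59.1, 55.8 and 42.6 CPM in IRI, 56, 68.6, 60.5 and 76.9 in rhabdomyolysis and 37.1, 35.3, 42 and 36.9 in cisplatin. All injured libraries were above the controls, the cisplatin ones by the least. The rises were log2 1.29, 1.22 and 0.45, each ± 0.16 (SE; limma adjusted p 3.83e-07, 3.17e-07 and 0.0124). The cisplatin rise was 0.35 and not called without control mouse 7 (limma adjusted p 0.0564), and 0.33 after quantile normalization (limma adjusted p 0.0574). Traf3ip2, which encodes the interleukin-17 receptor adaptor Act1, rose in rhabdomyolysis, from 7.66 ± 0.989 CPM in its matched controls to 17 ± 2.54 (SD, n = 4 each; log2 1.05 ± 0.18 SE, limma adjusted p 7.38e-06). It was 7.82 ± 1.49 CPM in IRI and 9.4 ± 1.93 in cisplatin, both overlapping the controls and not called; against all 8 controls the cisplatin value was called at 0.32 (limma adjusted p 0.0476). Traf1 rose in cisplatin, from 0.807 to 1.74 CPM in the controls to 2.1, 3.63, 4.13 and 3.49 (log2 0.86 ± 0.18 SE, limma adjusted p 1.55e-04; 0.49 after quantile normalization). Its log2 values of 0.04 in IRI and 0.18 in rhabdomyolysis were not called, and both turned below 0 after quantile normalization, to −0.22 and −0.12. Without control mouse 1 the IRI value was −0.00098.

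In the mitochondrial pathway, activators and brakes both rose. Of the 3 BH3-only genes, Bbc3 and Pmaip1 rose and Bid fell in every injury; both pore formers rose in every injury; and of 4 protective genes tested 2 rose in IRI and 4 in rhabdomyolysis and in cisplatin. Of all genes tested, 40.6%, 48.8% and 47.8% were called higher in IRI, rhabdomyolysis and cisplatin. Bbc3 had 1.44 to 2.8 CPM in the controls (median 1.81), 10 to 18 reads. Levels in the IRI mice were 3.8, 3.6, 4.48 and 2.06 CPM, in the rhabdomyolysis mice 7, 3.84, 5.13 and 5, and in the cisplatin mice 11.1, 16.7, 14.6 and 18.7. IRI mouse 4 lay within the control range; all rhabdomyolysis libraries were above the controls and all cisplatin libraries above the rest. The rises were 2.22-fold, 2.27-fold and 6.62-fold (log2 0.77, 0.90 and 2.28, each ± 0.19 SE; limma adjusted p 9.11e-04, 1.22e-04 and 3.28e-10).

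Pmaip1 had 13.1 to 24 CPM in the controls (median 16.5). It reached 29, 30.4, 28.1 and 31.6 CPM in IRI, 81.4, 65.1, 52.1 and 85.4 in rhabdomyolysis and 89.3, 114, 107 and 112 in cisplatin. These 4 groups followed each other without overlap. Rises were 1.67-fold, 4.46-fold and 6.65-fold (log2 0.74, 2.07 and 2.66, each ± 0.16 SE; limma adjusted p 2.80e-04, 5.27e-11 and 1.58e-12). Bid, the BH3-only protein that caspase 8 cuts, moved the other way. It had 67.7 to 95.1 CPM in the controls (median 79.6), 69.9, 53.3, 59.1 and 58.6 in IRI, 31, 40.1, 42.9 and 47.3 in rhabdomyolysis and 41.4, 35.5, 35.7 and 46.3 in cisplatin. The rhabdomyolysis and cisplatin libraries were below all controls, and IRI mouse 1 lay within the control range. Log2 changes were −0.37, −1.02 and −1.03, each ± 0.13 (SE; limma adjusted p 0.0152, 2.64e-07 and 3.35e-07). The IRI fall was not called without control mouse 3 (−0.28, limma adjusted p 0.0734), without IRI mouse 2 (−0.32, limma adjusted p 0.0533), with 75th percentile scaling (−0.24) or after quantile normalization (−0.21).

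The pore formers rose in all 3 injuries. Bak1 had 25 to 33.1 CPM in the controls (median 28.4) and 86.6 ± 3.88 after IRI, 90.1 ± 15 after rhabdomyolysis and 93.2 ± 7.36 after cisplatin (SD, n = 4 each). The 3 injuries overlapped one another and were all above the controls (log2 1.53, 1.65 and 1.71, each ± 0.11 SE). Bax had 27.3 to 40.4 CPM in the controls (median 33.9). It stood at 62.3, 47.4, 50.1 and 44.5 CPM in IRI, 54.4, 54.5, 58.2 and 48.8 in rhabdomyolysis and 80.4, 98.4, 101 and 97.3 in cisplatin. Cisplatin libraries were above all others. Bax rose by log2 0.59, 0.67 and 1.47, each ± 0.13 (SE; limma adjusted p 3.87e-04, 5.31e-05 and 1.19e-09).

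Of the protective proteins, Bcl2l1 had the highest control level per kilobase among the 39 members, a mean of 45.7 CPM per kb, followed by Mcl1 at 42.5. Bcl2l1 had 101 to 139 CPM in the controls (median 112) and rose to 227 ± 21.6 after IRI, 244 ± 17.3 after rhabdomyolysis and 341 ± 28.6 after cisplatin (SD, n = 4 each). IRI and rhabdomyolysis overlapped, and cisplatin was above both (log2 0.99, 1.01 and 1.49, each ± 0.11 SE). Mcl1 had 132 to 154 CPM in the controls (median 147). Mice with IRI had 189, 182, 179 and 201 CPM, the rhabdomyolysis mice 314, 302, 288 and 370, and the cisplatin mice 275, 290, 324 and 276. All were above the controls, and rhabdomyolysis and cisplatin overlapped. Its rises were log2 0.41, 1.08 and 0.95, each ± 0.09 (SE; limma adjusted p 4.20e-04, 3.72e-10 and 4.91e-09); after quantile normalization the first was 0.70.

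**Figure D3:**
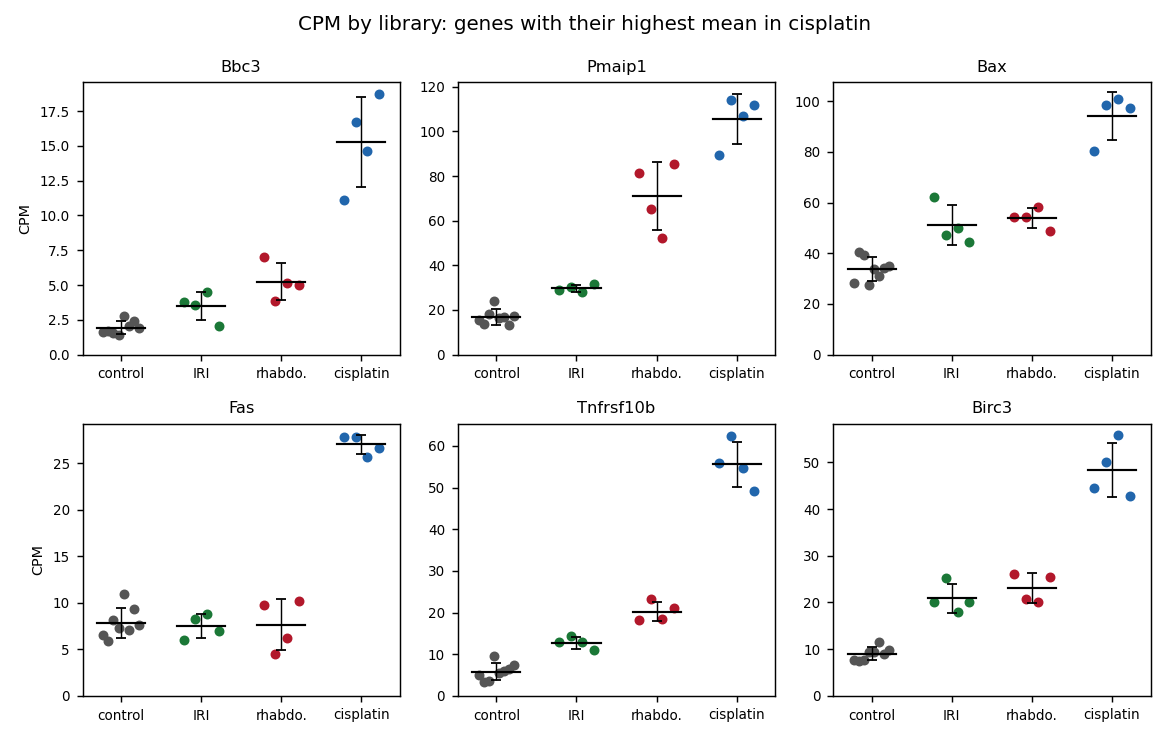
CPM (vertical axis) in each library by group (horizontal axis) for 6 genes whose mean was highest in cisplatin; points are mice, the horizontal line is the mean and the bar is 1 SD. In Fas the cisplatin mice are at 25.7 to 27.9 CPM and no other library is above 11; in Pmaip1 the rhabdomyolysis mice, 52.1 to 85.4, lie between IRI and cisplatin.

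Bcl2a1 encodes A1, a protective BCL2 protein best known in leukocytes. The longest transcripts of the copies a, b and d were 98.2% to 99.1% identical, so their reads are uncertain as separate genes and are also given summed. The sum was 1.08 to 1.97 CPM in the controls. It was 4.46, 3.73, 2.41 and 1.72 CPM in IRI, 10.5, 5.32, 7.51 and 1.14 in rhabdomyolysis and 7.47, 10.7, 11.6 and 7.55 in cisplatin. IRI mouse 4 and rhabdomyolysis mouse 4 lay within the control range, and all cisplatin libraries were above it. Taken singly, Bcl2a1b rose in rhabdomyolysis (log2 1.04 ± 0.31 SE) and cisplatin (1.64 ± 0.31 SE), and Bcl2a1d by 0.81 and 1.12 (± 0.32 SE each). The Bcl2a1d rise in rhabdomyolysis was not called without control mouse 7 (0.72, limma adjusted p 0.0557) or rhabdomyolysis mouse 1 (0.56, limma adjusted p 0.104), and after quantile normalization neither Bcl2a1d rise was (0.45 and 0.68). In IRI, Bcl2a1b was at 0.56 and not called, and it was called at 0.56 without rhabdomyolysis mouse 4 (limma adjusted p 0.0205).

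Of 14 myeloid markers, 10 were in the table. In IRI, rhabdomyolysis and cisplatin, 7, 9 and 8 of them were called higher (40.6%, 48.8% and 47.8% of all genes tested), and Csf1r was called lower in each. Their summed level was 75.5 to 102 CPM in the controls, 118 to 145 after IRI, 126 to 260 after rhabdomyolysis and 198 to 284 after cisplatin, and none was at 0. Rhabdomyolysis mouse 4 had the lowest sum of its group, 126 CPM, beside 260, 167 and 254. It was also the lowest of its group for Bcl2a1b, Casp12, Bcl3, Tnfrsf1b and Bak1, and the highest for Mcl1 and Traf3. The part of myeloid cells in the higher levels of Bcl2a1, Tnfrsf1b, Casp4 and Nlrp3 was not tested.

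**Figure D4:**
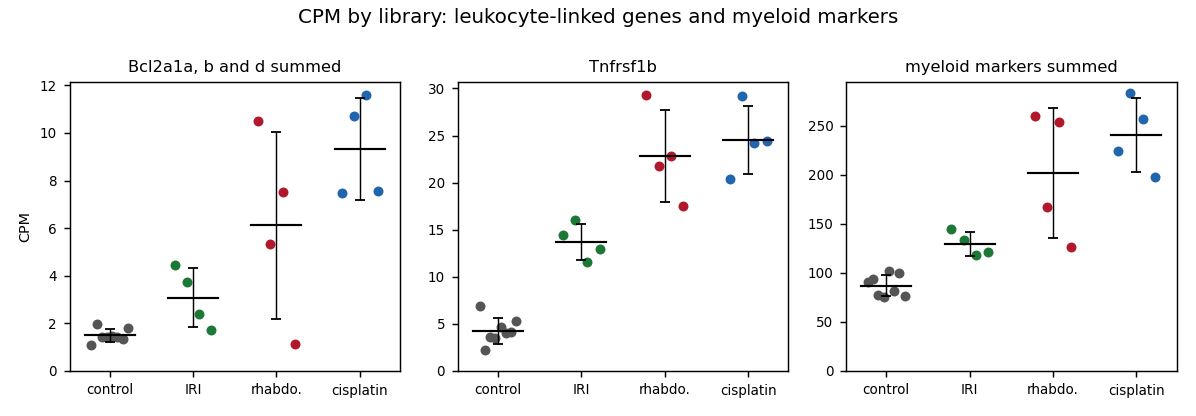
CPM (vertical axis) in each library by group (horizontal axis) for the summed Bcl2a1 copies, Tnfrsf1b and the 10 summed myeloid markers; points are mice, the horizontal line is the mean and the bar is 1 SD. Rhabdomyolysis mouse 4 is the lowest of its group in all 3 panels, at 1.14, 17.5 and 126 CPM.

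Bcl3, an unusual IkB protein that works in the nucleus, had 3.45 to 8.15 CPM in the controls (median 5.16). It rose to 20.4 ± 5.46 CPM after IRI, 30.8 ± 10.7 after rhabdomyolysis and 23.4 ± 2.52 after cisplatin (SD, n = 4 each; log2 1.88, 2.09 and 1.77, each ± 0.24 SE). Injured libraries were all above the controls and overlapped between injuries. Bcl10, a CARD adaptor upstream of NF-kB, rose from 28 ± 3.11 CPM (SD, n = 8) to 47.9 ± 2.54, 65.6 ± 6.19 and 69.4 ± 6.02 in the same order (SD, n = 4 each; log2 0.74, 1.22 and 1.30, each ± 0.11 SE).

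Among the caspases, Casp8 and Casp4 were called higher in IRI, Casp4 and Casp12 in rhabdomyolysis, and Casp8, Casp4 and Casp12 in cisplatin. Casp8, the initiator caspase of death receptors, had 33.5 to 53.7 CPM in the controls (median 43). IRI mice stood at 65, 83.2, 82.3 and 89.7 CPM, the rhabdomyolysis mice 49.3, 49.2, 43.9 and 46, and the cisplatin mice 72.8, 89.4, 86.5 and 74.7. Rhabdomyolysis lay within the control range, and both other injuries were above it. Log2 rises were 0.78 ± 0.13 in IRI (SE, limma adjusted p 1.27e-05) and 0.96 ± 0.13 in cisplatin (SE, limma adjusted p 4.77e-07). The rhabdomyolysis value of 0.20 ± 0.13 was not called (limma adjusted p 0.135). It was called at 0.33 without control mouse 7 (limma adjusted p 0.0133), at 0.38 under 75th percentile scaling, and at 0.31 by quantile normalization.

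Casp4, which encodes caspase 11, the sensor of intracellular lipopolysaccharide, had 0.534 to 1.81 CPM in the controls (median 0.697), 4 to 11 reads. It rose to 2.22 ± 0.929 CPM after IRI, 2.67 ± 1.13 after rhabdomyolysis and 4.83 ± 0.911 after cisplatin (SD, n = 4 each; log2 0.87, 0.86 and 1.57, each ± 0.23 SE). Cisplatin was above all controls and the others overlapped them. Casp12 had 0.552 to 3.02 CPM in the controls and overlapped them in every injury, with means of 2.96, 3.33 and 3.29 CPM. Its rises in rhabdomyolysis (log2 0.68 ± 0.29 SE, limma adjusted p 0.0309) and cisplatin (0.75 ± 0.29 SE, limma adjusted p 0.0196) each rested on single libraries. The first was lost without any 1 of 4 libraries (control mouse 8, 0.45; rhabdomyolysis mouse 1, 0.46; mouse 2, 0.65; mouse 3, 0.66). The second was lost without control mouse 8 (0.52) or cisplatin mouse 1 (0.65), and both were lost after quantile normalization (0.41 and 0.39). The IRI value of 0.49 was called at 0.67 without control mouse 4 and at 0.56 with all 8 controls. After quantile normalization the Casp4 rise in rhabdomyolysis was 0.56.

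The necroptosis pair rose in each injury and was highest in rhabdomyolysis. Ripk3 had 0.165 to 0.962 CPM in the controls (median 0.53), which is 1 to 6 reads. The IRI mice had 2.49, 2.13, 4.48 and 2.4 CPM, the rhabdomyolysis mice 8.32, 8.67, 7.98 and 6.02, and the cisplatin mice 2.8, 5.35, 4.13 and 4.36. Rhabdomyolysis libraries were above all others, and no injured library overlapped the controls. Mean levels rose 5.58-fold, 14.9-fold and 7.98-fold (log2 1.33, 2.54 and 1.77, each ± 0.21 SE). No control library was above 1 CPM, so Ripk3 entered the table through injured libraries. Its differences from the controls are for that reason given as a description.

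Mlkl had 0.719 to 2.83 CPM in the controls (median 1.5), 5 to 21 reads. It stood at 6.82, 6.66, 8.04 and 12.7 CPM in IRI, 14.4, 18.3, 18.7 and 10.9 in rhabdomyolysis and 7.7, 11.3, 8.94 and 6 in cisplatin. All were above the controls; IRI and cisplatin covered like ranges, and rhabdomyolysis mouse 4 lay within them. The rises were 5.76-fold, 10.2-fold and 5.56-fold (log2 1.98, 2.69 and 1.88, each ± 0.24 SE; limma adjusted p 2.56e-07, 6.88e-10 and 2.84e-07).

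Nlrp6, an innate sensor of epithelial cells, fell most among the members. It had 79 to 111 CPM in the controls (median 93.3). Libraries of IRI mice had 35.4, 40.8, 54.2 and 40.3 CPM, the rhabdomyolysis mice 7.56, 12.4, 10.8 and 10.4, and the cisplatin mice 36.3, 17.9, 18.8 and 28.5. Every injured library was below every control, and rhabdomyolysis was below both other injuries. Its mean was 2.07-fold lower in IRI, 9.61-fold lower in rhabdomyolysis and 3.91-fold lower in cisplatin (log2 −1.05, −3.16 and −1.98, each ± 0.18 SE; limma adjusted p 2.68e-05, 5.86e-13 and 1.92e-09). The 10 proximal tubule markers fell beside it, with 8, 10 and 10 called lower (40.1%, 46.5% and 44.0% of all genes tested) and median log2 changes of −1.36, −2.70 and −2.12; the part of these cells in the fall of Nlrp6 was not tested.

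Pycard, the inflammasome adaptor ASC, had 5.65 to 9.03 CPM in the controls (median 8.18). It rose to 16.4 ± 3.18 CPM after IRI, 11.4 ± 3.21 after rhabdomyolysis and 10.3 ± 1.04 after cisplatin (SD, n = 4 each; log2 0.99, 0.52 and 0.41, each ± 0.18 SE). IRI and cisplatin were above all controls, and rhabdomyolysis overlapped them. The rhabdomyolysis rise was lost without rhabdomyolysis mouse 1 (0.36, limma adjusted p 0.0573). The cisplatin rise was lost without control mouse 5 (0.33), control mouse 7 (0.37), cisplatin mouse 3 (0.40) or cisplatin mouse 4 (0.36), and after quantile normalization (0.14). Gsdmd, the pore of pyroptosis, had 0.962 to 2.11 CPM in the controls (median 1.9), 2.13 ± 0.336 after IRI, 2.76 ± 0.691 after rhabdomyolysis and 4.61 ± 0.571 after cisplatin (SD, n = 4 each). It rose in rhabdomyolysis (log2 0.57 ± 0.16 SE, limma adjusted p 0.00218) and cisplatin (1.16 ± 0.16 SE, limma adjusted p 9.30e-07); the first was 0.30 after quantile normalization and not called. The IRI value, 0.06 ± 0.16, was not called and became −0.16 after quantile normalization.

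The other 5 members, Casp14, Gsdma, Tnfrsf9, Nlrp3 and Bcl2a1a, had means under 1 CPM over the 20 libraries and were not tested by limma. Each gene of the table was above 1 CPM in 4 or more libraries. None of these 5 was above 1 CPM in a control, so they entered the table through injured libraries, and their values are given with no test. Casp14, a caspase of keratinocyte differentiation, had 0 reads in all 8 controls and 2.8, 2.62, 2.68 and 4.94 CPM in cisplatin, 24 to 51 reads. Against the value of 3 reads per control library that is at least 7.29-fold higher. In IRI it had 0 to 9 reads and in rhabdomyolysis 0 to 4. Gsdma, a gasdermin of skin, also had 0 reads in the controls. It had 1 to 3 reads in IRI, 0.855 to 2.16 CPM in rhabdomyolysis (at least 3.67-fold higher) and 1.63 to 4.24 CPM in cisplatin (at least 5.7-fold higher).

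Tnfrsf9, the receptor 4-1BB, had at most 1 read per control library and 10 to 12 reads after IRI, 5 to 14 after rhabdomyolysis and 10 to 19 after cisplatin. It was at least 3.22-fold, 1.81-fold and 3.1-fold higher in IRI, rhabdomyolysis and cisplatin. Nlrp3, the sensor of the best-known inflammasome, had 0 to 4 reads in the controls and means of 0.815 CPM after IRI, 1.49 after rhabdomyolysis and 1.43 after cisplatin. Every injured library had more Nlrp3 than every control. Its mean was 3.96-fold higher in rhabdomyolysis and 3.79-fold in cisplatin. Bcl2a1a had 0 to 0.575 CPM in the controls and was at least 5.13-fold higher in cisplatin, where all 4 libraries were above the controls. In rhabdomyolysis it was at least 2.48-fold higher, with overlap.

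Rhabdomyolysis and cisplatin were then compared directly, within 1 identifier range. Of the 34 members, 5 were higher in rhabdomyolysis and 15 in cisplatin, where 21.4% and 32.7% of all genes tested were. The median difference of the members was −0.21, and that of all genes −0.09. Among the genes higher in cisplatin were Fas, Tnfrsf10b and Bbc3, with log2 differences of −1.75 ± 0.19, −1.41 ± 0.20 and −1.38 ± 0.19 (SE; limma adjusted p 9.81e-08, 4.30e-06 and 2.46e-06). Tnfrsf18, which counts among the 15 and passed the minimum only through cisplatin, differed by −1.64 ± 0.21 (SE), as a description. In each of these 4, all 4 cisplatin libraries were above all 4 rhabdomyolysis libraries. Nlrp6 differed by −1.18 ± 0.18, having fallen further in rhabdomyolysis. Birc3 (−1.04), Bax (−0.79), Casp8 (−0.76), Casp4 (−0.71), Traf1 (−0.68), Pmaip1 and Gsdmd (−0.59 each) and Bcl2l1 (−0.48) were also higher in cisplatin.

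Higher in rhabdomyolysis were Mlkl (0.81 ± 0.24 SE, limma adjusted p 0.00752), Traf3ip2 (0.80 ± 0.18 SE, limma adjusted p 5.88e-04), Traf3 (0.77 ± 0.16 SE, limma adjusted p 4.21e-04), Ripk3 (0.77 ± 0.21 SE, limma adjusted p 0.00347) and Tnfrsf12a (0.50 ± 0.14 SE, limma adjusted p 0.00492). Rhabdomyolysis libraries were all above cisplatin libraries for Traf3ip2, Traf3, Ripk3 and Tnfrsf12a, and Mlkl overlapped. With a pseudocount of 0.1 the Ripk3 difference was 0.90 with a limma adjusted p of 0.0502. Without rhabdomyolysis mouse 4, 8 members were called higher in rhabdomyolysis.

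**Figure D5:**
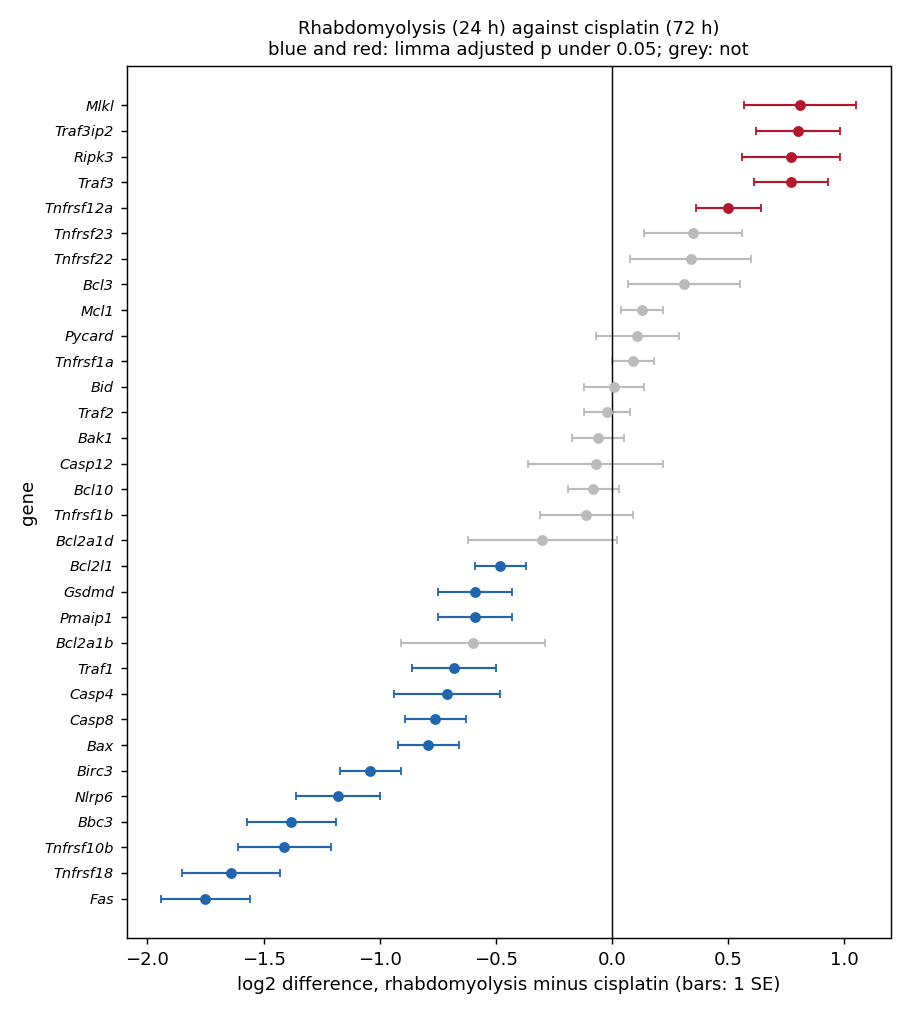
Fitted log2 difference between rhabdomyolysis (24 h) and cisplatin (72 h) on the horizontal axis for tested genes (vertical axis, sorted by difference); bars are 1 SE. The 5 red genes, led by Mlkl at 0.81, were called higher in rhabdomyolysis, the blue genes, led by Fas at −1.75, were called higher in cisplatin, and grey genes were not called.

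IRI was set against the other injuries through its effect on its own controls. Its effect was higher than that of rhabdomyolysis in 3 members and lower in 9, beside 28.6% and 23.4% of all genes. Nlrp6 fell less in IRI (2.11 ± 0.26 SE, limma adjusted p 1.26e-06), as did Bid (0.65 ± 0.19 SE, limma adjusted p 0.00703), and Casp8 rose more (0.58 ± 0.18 SE, limma adjusted p 0.0107). Tnfrsf12a (−1.50 ± 0.20 SE), Pmaip1 (−1.34 ± 0.22 SE), Ripk3 (−1.22 ± 0.30 SE) and Tnfrsf23 (−1.17 ± 0.29 SE) led the members that rose less in IRI than in rhabdomyolysis. On recovered reads the Ripk3 difference was −1.40 with an edgeR adjusted p of 0.0658. Mlkl, at −0.71 ± 0.34, was not called, and was called without control mouse 4 (−0.87), rhabdomyolysis mouse 4 (−0.86) or IRI mouse 4 (−0.90), after quantile normalization (−0.83) and with all 8 controls (−0.81). Without rhabdomyolysis mouse 1, 5 members in place of 3 had the higher effect in IRI.

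Against cisplatin, the IRI effect was higher in 3 members and lower in 17, beside 13.5% and 16.8% of all genes, with a median difference of −0.58 against −0.05 for all genes. Pmaip1 (−1.92 ± 0.22 SE), Tnfrsf10b (−1.74 ± 0.28 SE), Bbc3 (−1.51 ± 0.27 SE) and Fas (−1.45 ± 0.27 SE) led the lower ones, beside Tnfrsf18 (−1.94 ± 0.30 SE), which counts among the 17 and is given as a description. The IRI effect was higher for Nlrp6 (0.93 ± 0.26 SE, limma adjusted p 0.00882), Traf3 (0.84 ± 0.23 SE, limma adjusted p 0.00825) and Bid (0.66 ± 0.19 SE, limma adjusted p 0.0109). For Traf3 the control sets themselves differed, by −0.40 ± 0.16 (SE) for controls 1 to 4 minus controls 5 to 8 (limma unadjusted p 0.0231, adjusted p 0.541), and with all 8 controls its value was 0.44 (limma adjusted p 0.0476). Bak1, Traf2, Bcl3 and Casp8 were not called here, with differences of −0.17, 0.01, 0.10 and −0.18. The Tnfrsf23 difference of −0.82 ± 0.29 was called at a limma adjusted p of 0.0368 and lost without any 1 of 8 libraries, at −0.82 to −0.66: control mice 3, 4, 5 and 7, cisplatin mice 2 and 3, and IRI mice 1 and 4. It was also lost with a pseudocount of 0.1 (−0.82), under 75th percentile scaling (−0.78) and by edgeR (−0.80). The Traf1 difference of −0.82 was −1.21 by edgeR with an adjusted p of 0.0564.

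Partner genes of the same pathways were read from lists; of all genes tested, 40.6% were called higher and 40.1% lower in IRI, 48.8% and 46.5% in rhabdomyolysis, and 47.8% and 44.0% in cisplatin. Of 10 death ligands and their adaptors, 2 were in the table, and both were lower in all 3 injuries (median log2 −0.76, −1.25 and −1.12 in IRI, rhabdomyolysis and cisplatin; all genes tested, 0.08, 0.31 and 0.30). Tnfsf10, which encodes TRAIL, the ligand of Tnfrsf10b, was at 66.5 ± 18.5 CPM in controls 1 to 4 and 87.6 ± 9.14 in controls 5 to 8. It was at 41.7 ± 4.5 after IRI, 36.5 ± 10.1 after rhabdomyolysis and 28.3 ± 4.75 after cisplatin (SD, n = 4 each). Against the matched controls the log2 changes were −0.63, −1.28 and −1.60. Cradd, an adaptor of caspase 2, changed by −0.88, −1.23 and −0.64. Of 12 genes of the apoptosome, mitochondrial factors and IAPs, 4 were in the table, with medians of −0.64, −0.97 and −0.78. Apaf1, the scaffold that activates caspase 9, rose from 4.96 ± 0.928 CPM (SD, n = 8) to 10.1 ± 1.27, 14.9 ± 1.86 and 27.1 ± 2.63 (SD, n = 4 each; log2 0.90, 1.42 and 2.24). Aifm1, Endog and Birc6 were lower in all 3 injuries.

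Of 12 further BCL2 family and p53 death genes, 4 were in the table, with medians of 0.05, −0.92 and 0.67. Aen, a p53-induced nuclease, rose from 26.2 ± 4.73 CPM (SD, n = 8) to 70.5 ± 3.98, 64.5 ± 7.28 and 150 ± 12.7 (SD, n = 4 each). Tnfaip8 and Bnip3 were lower in each injury, with log2 changes in rhabdomyolysis of −2.39 and −1.88. Perp, a p53 target, rose in IRI (0.56) and cisplatin (1.65) and was at 0.05 in rhabdomyolysis, not called. All 4 of these genes were called higher in cisplatin than in rhabdomyolysis, as were 32.7% of all genes tested.

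Of 18 NF-kB regulators listed, 13 were in the table, and 12, 11 and 13 of them were called higher in IRI, rhabdomyolysis and cisplatin and none lower, beside 40.6%, 48.8% and 47.8% of all genes called higher. Their medians were 0.62, 1.04 and 1.19, and those of all genes 0.08, 0.31 and 0.30. Nfkb2, the precursor of p52, rose by log2 1.52, 1.68 and 2.57. Tnfaip3, which encodes the brake A20, rose by 0.57, 0.91 and 2.35, and Relb by 1.57, 1.92 and 2.31. Of 13 inflammasome and necroptosis partners, 5 were in the table and 4 were tested, with medians of 0.01, 0.86 and 1.13. None was called in IRI, and 2 were higher and 1 lower in rhabdomyolysis and 3 higher and 1 lower in cisplatin. Il1b, the precursor of interleukin 1 beta, rose by 1.67 and 1.27 in those injuries, Naip2 by 1.34 and 1.08, and Nlrc4 fell by 1.10 and 0.71. In rhabdomyolysis Il1b ranged from 1.02 to 8.84 CPM and overlapped the controls, at 0.516 to 1.2.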

How the data were processed

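RNA was isolated from kidney cortex and sequenced as stranded poly-A libraries in 150-bp pairs, per the labels' protocols. The submitters' processing notes name FastQC, Bowtie2 2.1.0, RSEM 1.2.15, edgeR, GRCm38 and mm10, without roles. The authors deposited 1 table of CPM per gene, scaled to an effective library size that is not defined in the sources used here; 100% of values in each library were whole multiples of 1 step (largest distance from a whole number 5.13e-05), so reads were recovered by division. In cisplatin mouse 2 the step lies close to 0.1 CPM, where rounding is harder to tell from whole reads. Reads carry no molecular tags, so limits set by 3 reads cover counting error only.

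Members were found by symbol. Role, pathway and marker lists, and the members themselves, were chosen with earlier results of these data known. The main model was limma 3.58.1 (R 4.3.3; empirical Bayes, trend) on log2(CPM + 1) with 5 groups (controls 1 to 4, controls 5 to 8 and the 3 injuries), a minimum mean of 1 CPM (5672 genes kept, 353 left out) and Benjamini-Hochberg adjustment over all genes tested. Between the 2 control groups 0 genes were called by limma and 0 by edgeR, with 454 and 433 at an unadjusted p under 0.05. On recovered reads, 5914 genes were tested by edgeR 4.0.16, which called 4671 (IRI), 5600 (rhabdomyolysis) and 5381 (cisplatin). Full values are given, per role, for the 3 largest called changes and the most abundant member, for the 3 largest differences each way between injuries, and for members not called or not tested; results of some members this rule selects are not reported here, though all members enter the counts and medians. For each pathway list counts are given, with up to 3 of its largest changes. A fold against controls with 3 reads or fewer is a lower bound against 3 reads per library. Alternatives were another pseudocount, minimum mean, scaling, control set, test or replicate block, and leaving out each library. Transcript identities and lengths use GENCODE transcripts and Biopython 1.88.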

Additional observations from a re-analysis of the deposited data

Results flagged for a closer look

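Of 154 pairs of member and group examined, 4 held a single distant mouse, where chance gives about 7.7. Dividing the gap to the nearest mouse by the span of its group gave 0.923 for Casp14 in cisplatin mouse 4 (4.94 CPM beside 2.62 to 2.8). It was 0.846 for Ripk3 in IRI mouse 3 (4.48 CPM beside 2.13 to 2.49). For Casp4 in control mouse 5 it was 0.665 (1.81 CPM beside 0.534 to 0.962), and for Pmaip1 in control mouse 4 it was 0.545 (24 CPM beside 13.1 to 18.1).

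Several effects differed between injuries by a test of the difference. Rhabdomyolysis and cisplatin differed in 20 of the 34 tested members. Of the members 14.7% were higher and 44.1% lower, beside 21.4% and 32.7% of all genes, so the share called was near that of all genes. Log2 values were −1.75 for Fas, −1.64 for Tnfrsf18, 0.77 for Ripk3, 0.80 for Traf3ip2 and 0.81 for Mlkl. The IRI and rhabdomyolysis effects differed in 12 members, 8.82% of members higher and 26.5% lower, beside 28.6% and 23.4% of all genes. Here the members were called less often than all genes. Values were −1.50 for Tnfrsf12a, −1.34 for Pmaip1, −1.22 for Ripk3, 0.58 for Casp8, 0.65 for Bid and 2.11 for Nlrp6. The IRI and cisplatin effects differed in 20 members, 8.82% of members higher and 50% lower, beside 13.5% and 16.8% of all genes. Values were −1.94 for Tnfrsf18, −1.92 for Pmaip1, −1.74 for Tnfrsf10b, 0.66 for Bid, 0.84 for Traf3 and 0.93 for Nlrp6. Tnfrsf18 reached the minimum of 1 CPM only through its cisplatin libraries, so its values against cisplatin are descriptions.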

How the results depend on the processing

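Counts of called members were recomputed under each alternative. Members lower in IRI went from 2 to 1 with 75th percentile scaling and with quantile normalization, through Bid. Members higher in rhabdomyolysis than in cisplatin went from 5 to 8 after quantile normalization, and those with the higher effect in IRI than in rhabdomyolysis from 3 to 5 with all 8 controls. Leaving out single libraries gave 23 to 25 members higher and 1 to 2 lower in IRI, 24 to 27 and 2 in rhabdomyolysis, 29 to 31 and 2 in cisplatin, 5 to 8 and 14 to 16 between rhabdomyolysis and cisplatin, 3 to 5 and 9 to 12 between the IRI and rhabdomyolysis effects, and 3 to 4 and 16 to 18 between the IRI and cisplatin effects. The cause of these shifts was not tested.

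Signs turned for values that were not called. After quantile normalization the IRI log2 values were −0.06 for Fas, −0.16 for Gsdmd, −0.18 for Tnfrsf18, −0.22 for Traf1 and −0.0041 for Traf3ip2, with −0.12 for Traf1 in rhabdomyolysis and −0.01 for Traf3ip2 in cisplatin. With all 8 controls they were −0.05 for Fas and −0.09 for Traf1. The Mlkl difference between the IRI and cisplatin effects, 0.09, was −0.002 with all 8 controls. Leaving out single libraries gave −0.10 to 0.32 for it, below 0 without control mouse 2 (−0.03), control mouse 4 (−0.06), cisplatin mouse 4 (−0.04) or IRI mouse 4. It gave −0.04 to 0.22 for Tnfrsf18 in IRI and −0.00098 to 0.08 for Traf1 in IRI.

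Scaling moved the median of all genes. With 75th percentile scaling it was 0.181 in IRI and 0.437 in rhabdomyolysis, from 0.0772 and 0.306, and with quantile normalization it was 0.141 in rhabdomyolysis and 0.033 in cisplatin, from 0.306 and 0.304. Bid and Nlrp6 stayed below 0 and Tnfrsf12a and Tnfrsf23 above 0 in each injury under every alternative run.

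Replicate numbers are shared across groups but do not pair the samples: same-numbered deviations correlated at −0.112 to 0.176 between IRI and controls and −0.207 to 0.325 between rhabdomyolysis and cisplatin, and not every sample correlated best with its own number. With the number as a replicate block, 24 members were higher and 2 lower in IRI, and 6 were higher and 14 lower in rhabdomyolysis than in cisplatin; Tnfrsf23 was gained between those injuries (0.35, limma adjusted p 0.0494) and Bcl2a1b in IRI (0.56, limma adjusted p 0.0155), and no other call on a member named here changed. Depth limits the genes with few reads: Ripk3, Casp4, Bcl2a1b, Bcl2a1d, Tnfrsf18 and the 5 untested members had at most 11 reads in any control library.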
